A study of Mus musculus with 6 samples.

Results

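The Krüppel-like factors (KLF) are transcription factors that bind DNA through zinc fingers at the C terminus. The genes described here are 10 of them, Klf2, Klf3, Klf4, Klf6, Klf7, Klf9, Klf10, Klf11, Klf12 and Klf13, taken by gene symbol from a written list that leaves out the erythroid factor Klf1; further family genes are described after them. All 10 were found among the 16403 genes of the deposited table, and all 10 passed the filter on low counts that left 12564 genes for testing. RNA was measured in LSK cells, the lineage-negative, Sca-1-positive, Kit-positive stem and progenitor fraction of bone marrow, sorted from C57BL/6 mice. Libraries came from mice that had carried a ligature inducing periodontitis (LIP) for 7 days or from unligated controls (NL). There were 3 libraries in each group, each pooled from 3 mice, so differences between single mice were not measured. The mRNA was polyA-selected, and library totals lay between 17780853 and 18841103 estimated counts.

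KLF proteins recognise GC-rich and CACCC-type DNA elements, and members differ mainly in the part before the zinc fingers, which recruits cofactors. Klf2, Klf4, Klf6 and Klf7 are known chiefly as activators, Klf3 and Klf12 recruit the corepressor CtBP, and Klf9, Klf10, Klf11 and Klf13 can recruit the corepressor Sin3. In blood cells the family is known for roles in lymphocyte quiescence and trafficking (Klf2), monocyte differentiation (Klf4) and transforming growth factor beta responses (Klf10 and Klf11). Several members, among them Klf2, Klf4, Klf6 and Klf10, are also induced within minutes by many stimuli.

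In LIP mice 4 of the 10 members were higher, Klf4, Klf7, Klf11 and Klf13, by 20% to 27%, and 1, Klf9, was lower by 13%, a call lost in 10 of 18 alternative fits. The other 5 were not called. Over all tested genes 14.1% were called higher and 15.8% lower (edgeR's quasi-likelihood test, adjusted p below 0.05, which is a call throughout). Scaled to library totals alone, 2755 genes were higher and 1301 lower over the whole table, against 1776 and 1984 here, but the same 4 KLF genes were called higher. The median log2 fold change of the 10 members was 0.13, beside -0.00072 over all tested genes. Every LIP value exceeded every NL value in 4 members, a pattern found in 19.9% of tested genes, and lay below every NL value in 2 members, a pattern found in 21.0%. With bulk RNA, more cells of a type and more RNA per cell cannot be told apart.

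The promoters of the 4 genes that rose are shown because these genes moved in the same direction, and that of Klf2 for a match to a MEF2 site. Each window runs from 250 bases before the RefSeq start site to 50 bases after it (build GRCm38.p6), 5′ to 3′ on the gene's strand. The windows are chr4:55532426-55532725 (minus strand) for Klf4, chr1:64121340-64121639 (minus) for Klf7, chr12:24651121-24651420 (plus) for Klf11, chr7:63938866-63939165 (minus) for Klf13 and chr8:72318812-72319111 (plus) for Klf2. Capitals mark CACCC boxes, which are KLF-type elements, GC boxes (GGGCGG) and the MEF2 site, each on either strand, so that a CACCC box on the opposite strand reads GGGTG and such a GC box CCGCCC.
Klf4 promoter: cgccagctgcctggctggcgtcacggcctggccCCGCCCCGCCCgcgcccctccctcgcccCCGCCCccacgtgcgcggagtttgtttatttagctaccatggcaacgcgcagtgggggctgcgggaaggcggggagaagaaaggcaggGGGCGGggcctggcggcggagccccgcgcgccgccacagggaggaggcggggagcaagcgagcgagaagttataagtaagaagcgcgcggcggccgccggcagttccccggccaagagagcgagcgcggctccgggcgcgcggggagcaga
Klf7 promoter: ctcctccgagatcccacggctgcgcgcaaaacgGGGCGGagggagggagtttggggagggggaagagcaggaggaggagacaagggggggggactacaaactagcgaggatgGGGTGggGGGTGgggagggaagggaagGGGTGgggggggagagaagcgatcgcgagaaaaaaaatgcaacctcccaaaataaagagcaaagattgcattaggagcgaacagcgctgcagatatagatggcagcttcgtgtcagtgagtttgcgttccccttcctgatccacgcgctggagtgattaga
Klf11 promoter: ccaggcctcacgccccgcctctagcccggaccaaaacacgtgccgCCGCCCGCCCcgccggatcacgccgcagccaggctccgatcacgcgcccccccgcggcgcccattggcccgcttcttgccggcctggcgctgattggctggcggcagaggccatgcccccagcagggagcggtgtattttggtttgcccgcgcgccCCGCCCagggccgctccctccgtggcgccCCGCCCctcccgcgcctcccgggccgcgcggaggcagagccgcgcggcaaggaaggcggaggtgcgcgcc
Klf13 promoter: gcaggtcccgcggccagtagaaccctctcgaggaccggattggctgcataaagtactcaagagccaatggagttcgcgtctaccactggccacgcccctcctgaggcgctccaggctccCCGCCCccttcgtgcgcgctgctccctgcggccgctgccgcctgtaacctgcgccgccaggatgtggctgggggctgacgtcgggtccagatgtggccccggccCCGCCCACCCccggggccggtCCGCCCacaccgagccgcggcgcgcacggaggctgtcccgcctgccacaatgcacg
Klf2 promoter: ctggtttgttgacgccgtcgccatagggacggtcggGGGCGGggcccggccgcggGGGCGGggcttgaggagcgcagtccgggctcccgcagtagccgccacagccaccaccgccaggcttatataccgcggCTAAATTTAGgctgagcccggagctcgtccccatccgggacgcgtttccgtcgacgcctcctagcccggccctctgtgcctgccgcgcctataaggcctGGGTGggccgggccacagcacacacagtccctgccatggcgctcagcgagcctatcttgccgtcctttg

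Of the 4 promoters of genes that rose, Klf7 held 3 CACCC boxes and Klf13 held 1, and the Klf4 and Klf11 windows held none of these letters. GC boxes were present in all 4, with 4 matches each in Klf4 and Klf11, 3 in Klf13 and 1 in Klf7. Over 12880 promoter windows of 10088 tested genes, 63.2% held a CACCC box and 61.0% a GC box, 10.8% held at least 3 CACCC boxes and 10.7% at least 4 GC boxes. In Klf13 a GC box and the CACCC box overlap, starting 27 and 22 bases before the start site. The Klf2 window held the one MEF2 match among the members, starting 118 bases before the start site, and 0.326% of all windows held such a match. A match describes the letters and is not a measured binding site.

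**Figure D1:**
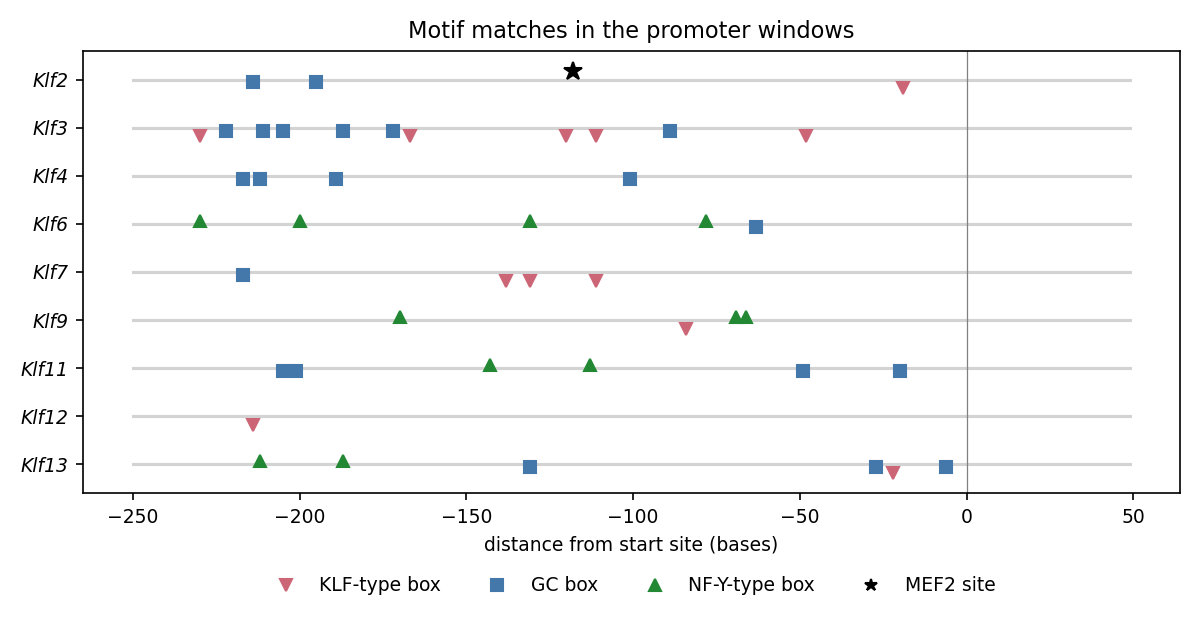
Each line is the promoter window of one of the 9 members with a RefSeq window, the horizontal axis gives the distance from the start site in bases, and symbols mark where a match begins for the KLF-type box (CACCC), the GC box (GGGCGG), the NF-Y-type box (CCAAT) and the MEF2 site. The 5 KLF-type boxes of Klf3 and the single MEF2 site of Klf2 stand out, and Klf6 has 4 NF-Y-type boxes.

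Among members that did not rise, Klf3 had 5 CACCC boxes, a number reached by 1.16% of windows, and 6 GC boxes, reached by 2.69%. Klf9, the member that fell, had 1 CACCC box, no GC box and 3 CCAAT boxes, and Klf6 had 4 CCAAT boxes. At least 3 CCAAT boxes were held by 5.05% of windows and at least 4 by 1.80%, while 37.9% held any. Klf11 and Klf13, which rose, held 2 CCAAT boxes each, a number reached by 14.4% of windows. The E-box CACGTG was found in Klf4, Klf6 and Klf11, against 9.78% of windows. TATAAA and GATAA were found in Klf12 alone, against 7.09% and 16.7% of windows, and the serum response element in none of the 9 windows, against 1.29%. The windows of Klf12 and Klf7 lie at a start site inside the annotated gene span, at 100149796 on chromosome 14 and 64121389 on chromosome 1. GC content of the members' windows ran from 45.7% in Klf12 to 77.7% in Klf11, around a median of 60.3% over all windows.

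Levels per transcript length differed widely among the members. In TPM, the authors' unit that allows for transcript length, Klf10 was the most abundant in NL cells, at 39.8 ± 0.554 (SD, n = 3), and Klf12 the least, at 1.52 ± 0.05. Klf13 and Klf3 followed Klf10 at 24.4 ± 0.831 and 24.2 ± 1.81 TPM and overlapped in NL. Klf6 stood at 17.0 ± 0.867, Klf11 at 11.8 ± 0.451, Klf9 at 9.20 ± 0.709, Klf4 at 8.003 ± 0.747, Klf2 at 5.53 ± 0.767 and Klf7 at 3.40 ± 0.240 TPM. Apart from Klf13 with Klf3 and Klf9 with Klf4, the NL values of neighbours in this order did not overlap. In LIP cells Klf4 (11.1 ± 1.002 TPM) stood above Klf9 (8.71 ± 1.11 TPM), the rest of the order was as in NL, and Klf9 and Klf2 were the only neighbours that overlapped. Klf10 was thus above 69.4% of tested genes in NL cells and Klf12 above 10.9%. The order by deposited FPKM was the same.

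TPM is used mainly to compare genes with each other within a group or library. The mean TPM of the median tested gene was higher in LIP by 0.13 on the log2 scale, so TPM differences between groups are read against that shift. Against that shift the TPM differences of Klf6, Klf10 and Klf12 were -0.11, -0.07 and -0.06, although their mean TPM itself was slightly higher in LIP. Within a library the ratio of 2 genes does not depend on scaling. The Klf4 to Klf9 ratio in TPM was 0.992, 0.753 and 0.880 in the NL libraries and 1.41, 1.19 and 1.25 in the LIP libraries, so Klf9 was the higher of the pair in every NL library and Klf4 in every LIP library. The Klf11 to Klf10 ratio lay between 0.285 and 0.306 in NL and between 0.374 and 0.382 in LIP. These pairs were picked after their values were seen and carry no test. Of the summed TPM of the 10 members, Klf13 made up 16.8% in NL and 19.4% in LIP.

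**Figure D2:**
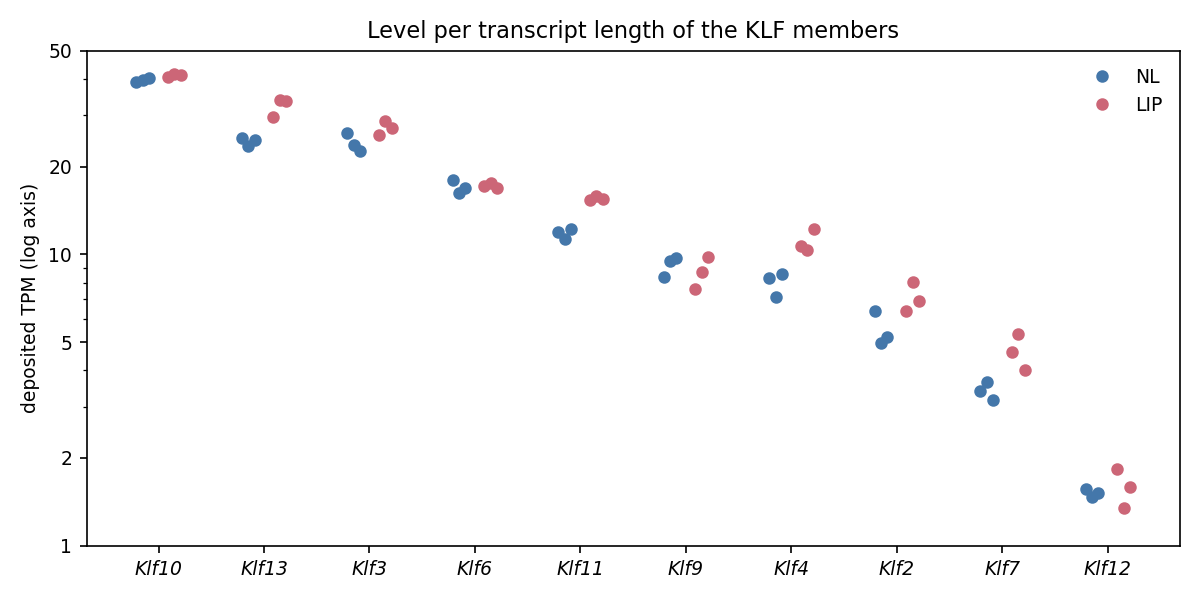
Points give the deposited TPM of each member in each library on a log axis, with NL in blue and LIP in red, ordered by the NL mean. Klf10 lies near 40 TPM in both groups and Klf12 below 2, and Klf4 and Klf9 exchange places between NL and LIP.

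Among the activators, 2 of 4 members were called, both higher, beside 14.1% higher and 15.8% lower over all tested genes. The classes hold 2 to 4 genes each, and no difference between them was tested. Klf4, which promotes monocyte differentiation (chromosome 4, 55527137 to 55532475), stood at 14.97, 12.99 and 15.4 CPM in the NL libraries and at 18.0, 16.8 and 20.4 CPM in the LIP libraries, where CPM are counts scaled by TMM to library size. All 3 LIP values lay above all 3 NL values. The rise was 1.27-fold, a log2 fold change of 0.35 ± 0.08 (SE), with an adjusted p of 6.01e-04 in edgeR's test. It rested on 229 to 271 counts per NL library and 322 to 390 per LIP library. In the same libraries the 9 monocyte markers summed to 803 to 824 CPM in NL and 1047 to 1080 CPM in LIP, and their part in this rise was not tested.

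Klf7, a broadly expressed member studied mostly in neurons (chromosome 1, 64029448 to 64122345), had 12.5, 12.1 and 12.1 CPM in NL and 15.6, 17.0 and 14.1 CPM in LIP. The NL libraries were nearly equal, the LIP libraries spread more, and the groups did not overlap. Its log2 fold change was 0.35 ± 0.08 with an adjusted p of 9.38e-04 in edgeR. In NL the coefficient of variation was 1.58%, below the 6.81% that counting alone gives at this depth, and in LIP it was 9.41% against 5.84%.

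Klf2, known for lymphocyte quiescence and for its induction by blood flow in endothelium (chromosome 8, 72319062 to 72321654), was not called. It had 6.72, 5.28 and 5.52 CPM in NL and 6.25, 7.63 and 6.74 CPM in LIP. NL replicate 1 lay within the LIP range. The log2 fold change was 0.24 ± 0.12 with a 95% interval from -0.01 to 0.48 and an adjusted p of 0.136 in edgeR. With 93 to 146 counts per library Klf2 had the lowest count of the 10, and a rise as large as that of Klf4 lies within its interval.

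Klf6, a growth-regulating factor of many tissues (chromosome 13, 5861489 to 5870393), was at 45.2, 41.2 and 42.6 CPM in NL and at 40.2, 39.7 and 39.3 CPM in LIP. The LIP values were all below the NL values, by a small margin. The log2 fold change of -0.11 ± 0.05 had an adjusted p of 0.0863 in edgeR, and with an offset for transcript length Klf6 was called lower, at -0.14 with an adjusted p of 0.0306. Over the 18 alternative fits that test against no change, its adjusted p ran from 0.0306 to 0.365.

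Both CtBP-recruiting members were uncalled, where 14.1% of all tested genes were called higher and 15.8% lower. Klf3, which restrains gene expression in several blood lineages (chromosome 5, 64803521 to 64832901), had 60.0, 56.6 and 54.5 CPM in NL and 55.5, 59.4 and 58.7 CPM in LIP. These ranges overlapped almost fully. The log2 fold change was 0.02 with a 95% interval from -0.07 to 0.11. Klf3 was the only member without whole counts, so its deposited value is an estimate and not a plain tally. Klf12, a repressor of the AP-2 alpha gene (chromosome 14, 99866181 to 100285891) had 9.62, 8.85 and 9.67 CPM in NL and 9.95, 7.73 and 9.30 CPM in LIP, with an interval from -0.27 to 0.14. The LIP libraries of Klf12 lay on both sides of the NL libraries.

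The Sin3-recruiting members split, with 2 higher, 1 lower and 1 not called, beside 14.1% higher and 15.8% lower over all tested genes. The 1 lower was Klf9, a call lost in 10 of 18 alternative fits. Klf13, first described in T cells as a regulator of the chemokine gene Ccl5 (chromosome 7, 63886351 to 63938915), had the smallest p of the family. It stood at 96.4, 90.9 and 94.8 CPM in NL and at 106, 117 and 119 CPM in LIP, with LIP replicate 1 the lowest of its group and still above every NL library. The rise was 1.21-fold, 0.28 ± 0.04 on the log2 scale, with an adjusted p of 2.07e-07 in edgeR. With the offset for length and GC content it was 0.18, the lowest value among the alternatives, and still called.

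Klf11, a transforming growth factor beta-inducible repressor (chromosome 12, 24651371 to 24662782), stood at 28.4, 27.1 and 29.0 CPM in NL and at 34.0, 33.9 and 33.9 CPM in LIP. The LIP libraries were nearly identical, with a coefficient of variation of 0.196%, where counting alone gives 3.96%. The log2 fold change was 0.27 ± 0.06 with an adjusted p of 1.81e-04 in edgeR. Its close relative Klf10, also induced by transforming growth factor beta (chromosome 15, 38291464 to 38300711) had 71.0, 72.8 and 73.3 CPM in NL and 68.8, 67.8 and 69.4 CPM in LIP. All LIP values of Klf10 were lower than all NL values, but the log2 fold change of -0.08 ± 0.04 was not called, with an adjusted p of 0.175 and an interval from -0.16 to 0.01. The 95% intervals of Klf11 and Klf10 did not overlap, and the difference between the 2 genes was not tested.

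Klf9, a target of glucocorticoid and thyroid hormone receptors (chromosome 19, 23141226 to 23168129), had 16.2, 18.5 and 18.83 CPM in NL and 13.7, 15.2 and 17.5 CPM in LIP. LIP replicate 3 and NL replicate 1 made the groups overlap. The log2 fold change was -0.21 ± 0.08 with an adjusted p of 0.0487 in edgeR, just under the threshold. The call was lost in 10 of 18 alternative fits, whose adjusted p ran from 0.00557 to 0.298. DESeq2 gave an adjusted p of 0.204, and leaving out a library gave 0.19 (NL replicate 2), 0.186 (NL replicate 3), 0.298 (LIP replicate 1) and 0.13 (LIP replicate 2), with log2 fold changes from -0.19 to -0.13. The fall of Klf9 was thus not held by all settings, unlike the 4 rises, which were called in all 18 of these fits.

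**Figure D3:**
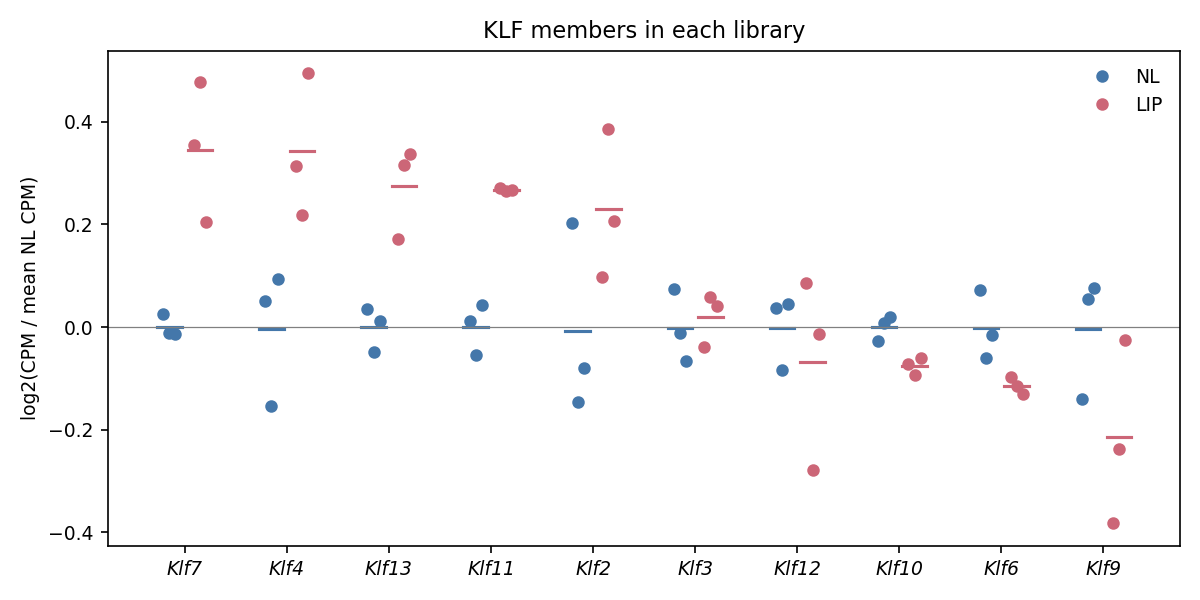
Each point is one library, plotted as the log2 ratio of its CPM to the NL mean of that gene, with NL in blue, LIP in red and bars at the group means of these log2 values (3 libraries each). Klf7, Klf4, Klf13 and Klf11 have all LIP points above all NL points, and Klf2, Klf3, Klf12 and Klf9 overlap.

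None of the rises was large in absolute terms. Against a null of 1.2-fold in place of no change, no member was called. The median absolute log2 fold change over all tested genes was 0.10, and 8.14% of tested genes had a larger one than Klf4. Standard errors of the 10 members lay between 0.04 and 0.12.

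**Figure D4:**
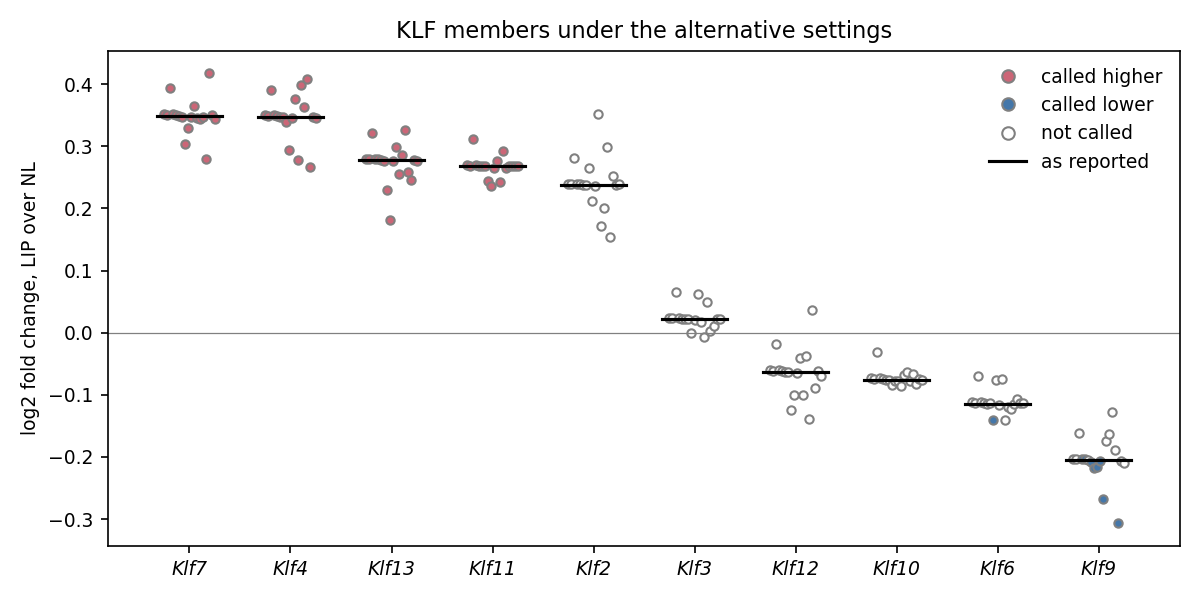
Circles give the log2 fold change of each member under the 18 alternative settings that test against no change (17 for Klf3), filled where the gene was called, and black lines the values in the text. Circles of Klf7, Klf4, Klf13 and Klf11 are all filled, those of Klf2, Klf3, Klf12 and Klf10 all open, and Klf9 has 8 filled of 18 and Klf6 has 1.

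Other KLF genes and the related SP factors, which bind the same GC-rich elements, did not share one direction. Of 16 symbols listed, 12 were in the table and 9 were tested, with 1 called higher, 3 lower and a median log2 fold change of -0.13. Of all tested genes 14.1% were higher and 15.8% lower. Sp2 had 26.2 ± 0.709 CPM in NL and 36.0 ± 2.14 CPM in LIP (mean ± SD over 3 libraries). It rose by 0.46 ± 0.06 on the log2 scale (edgeR adjusted p 5.74e-09), the largest log2 change among the called KLF and SP genes. Sp3 fell by 0.15 and Sp4 fell by 0.17 on the log2 scale, and the call of Sp3 was lost with the length and GC offset, at -0.07 (adjusted p 0.0606). The erythroid factor gene Klf1 fell by 0.17, but not without NL replicate 2 or LIP replicate 2 (adjusted p 0.129 and 0.154), with library totals alone (0.0728), with the length offset (0.0849) or in DESeq2 (0.0974). Sp1, the most general factor of the group, stood at 0.02.

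Klf16, a further Sin3-recruiting gene, had a log2 fold change of 0.13 (edgeR adjusted p 0.0703) and was called higher without LIP replicate 2 (0.20, adjusted p 0.00825) and with library totals alone (0.17, 0.0112). Neither Klf8 (-0.13, adjusted p 0.368) nor Klf5 (-0.26, 0.431) was called, nor Sp6 (0.32, 0.564), which had 6 to 16 counts per library. Klf15 had 0 to 4 counts per library and Klf17 and Sp7 0 to 1, so no difference was detectable at this depth, where 3 counts correspond to 0.157 to 0.171 CPM.

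**Figure D5:**
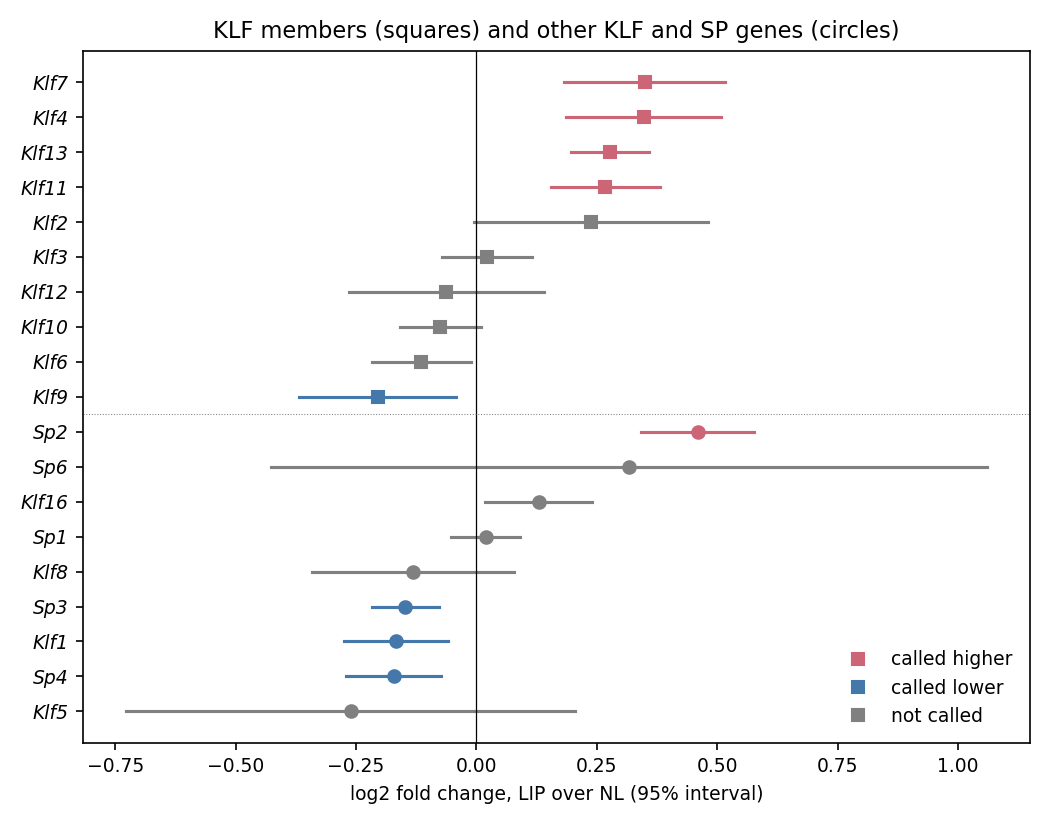
Symbols give the log2 fold change of LIP over NL and lines its 95% interval, with the 10 KLF members as squares above the dotted line and 9 other tested KLF and SP genes as circles below it; red is called higher, blue called lower and grey not called. Klf7, Klf4, Klf13, Klf11 and Sp2 lie to the right of 0, and Klf9, Sp3, Klf1 and Sp4 to the left.

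The inducers of Klf2 and Klf4 were read from a list of the kinase cascade through ERK5 to the MEF2 factors, with the FOXO factors and class IIa histone deacetylases. Of 13 tested genes 3 were higher and 1 lower, with a median of 0.05, beside 14.1% higher and 15.8% lower over all tested genes. The 3 that rose form one cascade in textbook accounts: Map2k5 (MEK5) by 0.20, Mapk7 (ERK5) by 0.22 and Mef2d by 0.29 on the log2 scale. Mef2d had 141 CPM in NL and 172 CPM in LIP (edgeR adjusted p 4.18e-07). The call of Mapk7 was lost in 4 of 18 alternative fits, among them those without NL replicate 2 (0.16, adjusted p 0.121) and LIP replicate 3 (0.15, 0.126). Map3k2, a kinase acting above MEK5, fell by 0.22. Mef2a and Mef2c stood at -0.04 and -0.03 and Foxo1 at -0.04, none of them called. Kinase activity was not measured, and the part of these genes in the KLF values was not tested.

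Of 15 KLF cofactor genes 2 were higher and 3 lower, with a median of 0.00317, beside 14.1% higher and 15.8% lower over all tested genes. Ctbp1 and Ctbp2 were at -0.03 and -0.07 and Sin3a at 0.06, none called. Sin3b fell by 0.14, Kat2b fell by 0.16 and Hdac1 fell by 0.09, while Kdm1a rose by 0.14 and Ep300 by 0.10 on the log2 scale. Only the Kdm1a call was held in every alternative fit against no change. Of 18 such fits, Sin3b lost its call in 5, Kat2b in 4, Hdac1 in 7 and Ep300 in 8. For Ep300 these included both offsets (length, and length with GC), DESeq2 and limma-voom. Sin3b lost its call without NL replicate 3 or LIP replicate 2 (adjusted p 0.0916 and 0.102), Kat2b without NL replicate 2 or LIP replicate 1 (0.0504 and 0.0754), Hdac1 without any one of the NL libraries (0.0523, 0.0637 and 0.133) or LIP replicate 2 (0.103), and Ep300 on leaving out NL replicate 2 (0.197), NL replicate 3 (0.143) or LIP replicate 2 (0.311).

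Genes known as KLF2 targets in lymphocyte trafficking went both ways, with 3 of 10 tested genes higher, 2 lower and a median of 0.02. Of all tested genes 14.1% were higher and 15.8% lower. The integrin gene Itgb7 rose by 0.15 on the log2 scale. Itgb7 was not called with the length and GC offset (0.09, adjusted p 0.0674). Thbd, the thrombomodulin gene, rose by 0.25, although not without NL replicate 1 or LIP replicate 1 (adjusted p 0.123 and 0.0516). The Thbd call was also lost with the length and GC offset and in DESeq2. The chemokine receptor gene Cxcr4 fell by 0.14 and S1pr4 fell by 0.16, the latter not without NL replicate 2 or LIP replicate 1 (0.0585 and 0.102). The S1pr4 call was also lost with library totals alone and in DESeq2. S1pr1, the best-known KLF2 target, stood at -0.10 (edgeR adjusted p 0.458).

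In the transforming growth factor beta pathway, to which Klf10 and Klf11 belong, 4 of 13 tested genes were higher and 1 lower, with a median of 0.04. The shares over all tested genes were 14.1% higher and 15.8% lower. The ligand gene Tgfb1 rose from 356 to 399 CPM (0.16 on the log2 scale, adjusted p 6.01e-05 in edgeR). The pathway repressor genes Ski and Skil rose by 0.16 and 0.22 and the receptor gene Tgfbr2 by 0.11, and the inhibitory Smad6 fell by 0.33. Ski was not called with the length and GC offset (0.07, adjusted p 0.232). Of 18 alternative fits against no change, Skil lost its call in 4, Tgfbr2 in 7 and Smad6 in 8. For Tgfbr2 these included both offsets and DESeq2. Skil lost its call without NL replicate 2 or LIP replicate 1 (0.0981 and 0.102), Tgfbr2 without NL replicate 2 or 3 or LIP replicate 1 or 2 (0.0889, 0.137, 0.102 and 0.058) and Smad6 without NL replicate 1 or 2 or LIP replicate 2 or 3 (0.0725, 0.219, 0.269 and 0.0887).

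Among glucocorticoid targets, the class that includes Klf9, 5 of 10 genes were lower and 1 higher, with a median of -0.10. Of all tested genes 15.8% were lower and 14.1% higher. Tsc22d3, which encodes GILZ, had 164 CPM in NL and 121 CPM in LIP and fell by 0.43 ± 0.04 on the log2 scale (edgeR adjusted p 8.26e-15). The clock gene Per1 fell by 0.29, the phosphatase gene Dusp1 fell by 0.37 and the mTOR inhibitor gene Ddit4 fell by 0.25 on the log2 scale, alongside Cxcr4. Fkbp5, a classical target, rose by 0.10, a call lost when any library but LIP replicate 3 was left out (adjusted p from 0.0507 to 0.152). The Fkbp5 call was also lost with both offsets and in DESeq2. In Sgk1 (0.34, edgeR adjusted p 0.0613) and Zbtb16 (0.19, 0.0782) every LIP value exceeded every NL value, but neither was called. The receptor gene Nr3c1 was at -0.05 and not called. Dusp1 is also on the immediate-early list below and Cxcr4 on the list of KLF2 targets above. The part of these genes in the fall of Klf9 was not tested.

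The immediate-early genes, a class that includes Klf2, Klf4, Klf6 and Klf10, had 8 of 19 tested members lower and 1 higher, with a median of -0.15. The shares over all tested genes were 15.8% lower and 14.1% higher. Jun fell by 0.76, Jund fell by 0.31 and Ier5 fell by 0.33 on the log2 scale, and Fosl2 rose by 0.24, a call lost with the length and GC offset (adjusted p 0.0654) and in DESeq2 (0.0521). Of 9 tested heat shock genes all were lower. Hspa1a fell by 5.24, Hspa1b fell by 4.99 and Hsph1 fell by 0.74 on the log2 scale; Hspa1a and Hspa1b are near-identical copies with estimated counts, so their separate values are uncertain. The summed level of the 10 listed genes was 8607 to 8858 CPM in NL and 6476 to 6862 CPM in LIP. The part of these stress-responsive genes in the KLF values was not tested.

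Genes of the monocyte programme in which Klf4 acts moved in the same direction as Klf4. Of 12 tested genes 9 were higher and none lower, with a median of 0.32, beside 14.1% higher and 15.8% lower over all tested genes. The matrix gene Fn1 rose by 0.85, F13a1 by 0.48 and the growth factor receptor gene Csf1r by 0.43 on the log2 scale. Irf8, a transcription factor of the monocyte lineage, rose by 0.28. The list shares 7 of its 12 genes with the 9 monocyte markers below.

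Markers of other cell types were summed in CPM, in which a gene with a long transcript weighs more. Their counts of called genes stand beside 14.1% higher and 15.8% lower over all tested genes. Of the monocyte markers 8 of 9 were called higher, among them Csf1r at 60.3 CPM in NL and 81.4 CPM in LIP. Only Cd14, at 1.36 and 1.60 CPM, was not called. Neutrophil markers summed to 223 to 239 CPM in NL and 317 to 340 CPM in LIP, with 8 of 10 tested genes higher. Ly6g, at 0.0759 and 0.0348 CPM, was too low to be tested. B-cell markers were at 72.9 to 74.9 CPM in NL and 91.2 to 94.7 CPM in LIP (6 of 9 higher), and T and NK cell markers at 143 to 152 and 161 to 176 CPM (4 of 8 higher). Most of the T and NK sum was Nkg7, at 125 CPM in NL and 140 CPM in LIP. The T-cell genes Cd3d, Cd3e and Cd3g were low, at 0.739, 0.493 and 1.40 CPM in NL. In LIP they stood at 1.06, 1.06 and 1.91 CPM, and of these only Cd3e was called. The sums of megakaryocyte markers overlapped, at 152 to 165 and 161 to 171 CPM (2 of 6 higher). Endothelial and stromal markers were at 107 to 111 and 125 to 127 CPM (2 of 5 tested higher, 1 lower). Cdh5, at 0.36 and 0.516 CPM, was too low to be tested. Erythroid markers, Klf1 among them, were at 483 to 495 and 427 to 476 CPM (1 of 9 higher, 3 lower). The part of such cells in the rises of Klf4, Klf7, Klf11 and Klf13 was not tested.

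RNA of the listed LSK marker genes was found in all libraries. No other sorted population was compared, so the values do not establish the sorted identity. Markers of LSK cells summed to 2668 to 2688 CPM in NL and 2759 to 2792 CPM in LIP, with a median log2 fold change of 0.06 and 3 of 9 called higher, among them Kit by 0.18 and Meis1 by 0.15 on the log2 scale. Of all tested genes 14.1% were called higher. Ly6a, the Sca-1 gene, was at 38.7 and 37.0 CPM and not called.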

How the data were processed

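Bulk mRNA of sorted LSK cells was sequenced on a BGISEQ platform (paired ends of 100 bp, 45.0 M reads per sample on average), per the labels' protocols. The authors deposited, per library and gene, estimated counts (expected counts, partly not whole), FPKM values and TPM values, named so in the file headers. The submitters' processing notes list STAR, HTSeq and GRCm38, without versions. Which tool made the estimates is not stated there. Between 86.3% and 86.8% of counts per library were whole (within 1e-06), and 6 columns of group means were not used. Counts were rounded before testing, as planned if they proved not whole. Library totals gave TMM-scaled CPM, with factors from 0.981 to 1.02.

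LIP was compared with NL by edgeR 4.0.16 (R 4.3.3) with filterByExpr, TMM, robust quasi-likelihood fitting, group as the only term and Benjamini-Hochberg adjustment over 12564 genes. SEs and 95% intervals derive from the test statistic. The script was tested on simulated data. The members and gene lists were chosen with earlier results of these data known. Named were all members, all other tested KLF and SP genes, the 3 smallest p of each related list and any gene that completes a count of 5 or fewer. Irf8, Mef2a, Mef2c, Foxo1, Ctbp1, Ctbp2, Sin3a, S1pr1, Nr3c1, Sgk1, Zbtb16, Cd14, Ly6g, Nkg7, Cd3d, Cd3e, Cd3g, Cdh5 and the LSK markers are outside that rule and were picked with their values known. Some genes counted in the lists are not reported here by name. A planned correlation between members is not given, since the libraries form 2 groups.

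Alternatives were DESeq2 1.42.0, limma-voom (limma 3.58.1), other scalings and filters, a replicate block, non-robust estimation, a 1.2-fold null, an adjusted p below 0.01, whole-count genes only, leaving out each library, and a per-library lowess offset (span 0.3) for effective length from the deposited counts and FPKM. An offset adding GC content, known for 98.5% of tested genes, was chosen after seeing the data. RefSeq (GRCm38) supplied gene positions, found for all 10 members, and promoters, found for 9. Motifs were searched on both strands.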

Additional observations from a re-analysis of the deposited data

How the results depend on the processing

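The 4 members called higher stayed at 4 with DESeq2, limma-voom, the other scalings and filters, the replicate block, both offsets, whole-count genes, an adjusted p below 0.01 and each library left out. Against a 1.2-fold null the count was 0. The 1 member called lower (Klf9) was 1 with the replicate block as well, and 0 with RLE scaling, upper-quartile scaling, library totals alone, non-robust estimation, the 1.2-fold null, DESeq2, limma-voom and an adjusted p below 0.01. With the length offset it was 2, as Klf6 was added, and leaving out single libraries gave between 0 and 1. The labels state no pairing by replicate number. Same-numbered LIP and NL libraries had correlations of 0.03, -0.02 and -0.11 between their deviations from the group means. The highest of all 9 was 0.132, between NL replicate 2 and LIP replicate 3. With 3 libraries per group these values cannot exclude a pairing. The replicate block gave 1750 higher and 1979 lower genes over the whole table, DESeq2 gave 1091 and 1285, an adjusted p below 0.01 gave 1148 and 1345, and the 1.2-fold null gave 99 and 73, against 1776 and 1984. Uncalled values near 0 turned sign in single settings, and the cause was not tested: Klf3 to -0.00093 with the length offset, and from -0.0076 to 0.063 with single libraries left out, Klf12 from -0.14 to 0.036 and Sp1 from -0.0043 to 0.042 likewise, Sp1 to -0.037 with the length offset, Ly6a to 0.06 with the length offset (0.0583) and with length and GC (0.0556), and Cd34 to 0.0015 with library totals alone and 0.016 with length and GC. Counts were low for Klf2, with 93 in its lowest library, and lower for Sp6, with 6 to 16.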
